A study of Bos taurus with 18 samples.

Results

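The respiratory chain of the mitochondrial inner membrane passes electrons from NADH and succinate to oxygen through complexes I to IV and uses the proton gradient so formed to drive complex V, the ATP synthase. Mitochondrial DNA encodes a few central subunits, and the nucleus encodes all the others. Complex I is NADH dehydrogenase, complex II is succinate dehydrogenase, complex III passes electrons to cytochrome c, and complex IV is cytochrome c oxidase. Mesenchymal stem cells (MSCs) in monolayer are known to draw much of their ATP from glycolysis, and their use of oxidative phosphorylation is known to change as they differentiate.

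The nuclear genes of the chain were taken by symbol from all genes counted in these cells. Symbols starting with NDUFA, NDUFB, NDUFC, NDUFS, NDUFV, UQCR, COX4I, COX5, COX6, COX7, COX8 or ATP5 were kept, with SDHA, SDHB, SDHC, SDHD and CYC1, and the NDUFAF assembly factors were left out. This gave 85 of 16989 genes, of which 39 belonged to complex I, 4 to complex II, 9 to complex III, 16 to complex IV and 17 to complex V. All 85 matched an entry of the RefSeq gene table by symbol or older name. The rule works on names, so it also took in ATP5S and ATP5SL, which are not subunits of the ATP synthase, and NDUFA4, which is now placed in complex IV. They were kept where their names put them.

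The cells were bone marrow-derived MSCs of juvenile cattle (Bos taurus), all from the same donor, grown untreated in monolayer on plastic in basal medium with serum. The 17 clones, named A to Q, had each been expanded from a single cell. The heterogeneous population had not been cloned. Poly-adenylated RNA was sequenced once per clone and once for the heterogeneous population at passage 1, so p-values measure the spread between single libraries of different clones, with no repeat of any clone. The clones held 11484812 to 18458157 reads on genes (median 14193790), and the heterogeneous population 16092501. All 14 MSC markers had reads. CPM is the reads of a gene or gene set against all reads on genes, scaled to 1e6. The summed level of the markers ran from 63111 CPM in clone N to 199271 in clone M. Most of this sum was COL1A1, COL1A2 and COL3A1, and it does not order the clones by the other markers. NT5E, PDGFRA, DCN and CXCL12 were highest in clone N (790, 851, 4734 and 802 CPM). PDGFRA, CD44 and CXCL12 were lowest in clone M (85.8, 155 and 31.1 CPM). Clones C and O were the most alike of all pairs (chi-square per degree of freedom 4.9, against 22.3 for the next pair), but differed by more than counting noise and were kept as separate clones. Each SD, r and list of top clones below counts both, and no setting left the pair out together. In bulk samples, fewer cells with a transcript and less of it per cell cannot be told apart.

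Of the 85 genes, 68 had a mean of at least 1 CPM over the clones and are called measured here. They were 33 of complex I, 2 of complex II, 9 of complex III, 8 of complex IV and 16 of complex V. A further 6 had some reads but a lower mean, and 11 had 0 reads in all 18 libraries. The share of genes at 0 throughout was 12.9% (11 of 85) among these genes and 15% (2548 of 16989) among all genes. The 11 were NDUFA1, NDUFA10, NDUFAB1, NDUFB11 and NDUFS6 of complex I, SDHA and SDHD of complex II, COX6A1, COX7B and COX8B of complex IV, and ATP5L of complex V. SDHA carries the flavin at which succinate is oxidised, and SDHD is one of the membrane anchors. Cells with a working complex II need both, so these genes are listed at 0 and nothing about their expression was read from it. NDUFV2, which carries an iron-sulphur cluster of the electron input arm of complex I, had 5 to 20 reads in every library, and COX7C, a small subunit found in complex IV of all tissues, had 0 to 2 reads. Why such genes drew few or no reads was not tested. At these depths 3 reads, the limit that a count of 0 allows, came to between 0.163 and 0.261 CPM in the clones. This covers counting error only.

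Together the 85 genes took between 0.392% of gene reads in clone Q and 0.551% in clone I, and 0.377% in the heterogeneous population, which lay below all 17 clones. With TMM it lay below 15 of the 17, and without NDUFA4L2 below 16 (14 with TMM). Levels are given below as CPM by library total. Transcript lengths were not used, so a gene is compared with itself across libraries and not with another gene. CPM by library total leaves an offset in the typical gene. The median of all genes lay between 0.13 log2 units below its clone median (clone E) and 0.21 above it (clone L), and 0.08 below in the heterogeneous population. The TMM scaling of edgeR removes this offset, and TMM values are given beside the counts and sums. The clone at either end of a single gene's range is that by library total. With TMM the highest clone was the same in 35 of the 68 genes with at least 1 CPM and the lowest in 39.

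The genes of the chain had a smaller spread between clones than the typical gene. The standard deviation (SD) of log2(CPM + 0.25) over the 17 clones had a median of 0.20 over the 68 measured genes, where the same median was 0.33 over all 10711 genes with a mean of at least 1 CPM and 0.29 over the 3363 genes with at least 50 CPM. The 34 genes of the chain with at least 50 CPM had a median of 0.19. With TMM the first 3 medians were 0.22, 0.31 and 0.27. Of the 68 genes, 64 had a smaller SD than the median gene. The highest clone exceeded the lowest by over 2-fold in 10 of the 68 genes (14.7%), against 63.5% of all genes. By complex the median SD was 0.20 for complex I, 0.17 for complex II, 0.26 for complex III, 0.18 for complex IV and 0.22 for complex V.

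**Figure D1:**
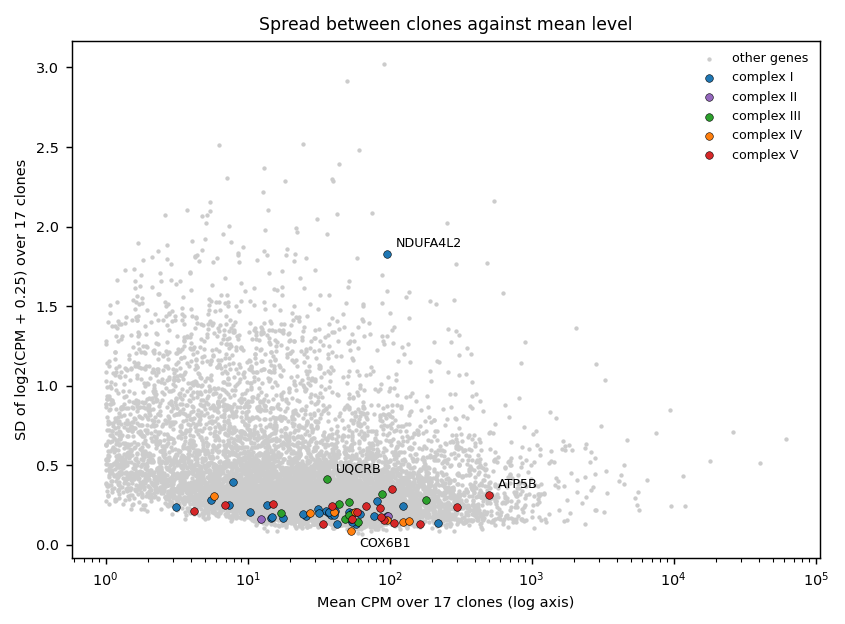
SD of log2(CPM + 0.25) over the 17 clones against mean CPM (log axis), one point per gene with a mean of at least 1 CPM; the genes of each complex are coloured and all other genes are grey. NDUFA4L2 stands at an SD of 1.83 and the other 67 genes lie between 0.09 and 0.41.

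In complex I, NDUFA8, an accessory subunit of the membrane arm, varied the least. It lay between 49.3 CPM in clone N and 67.7 in clone I, with a median of 58.0, and at 58.7 in the heterogeneous population. The highest clone thus exceeded the lowest 1.37-fold for NDUFA8. NDUFA5, an accessory subunit of the arm that projects into the matrix, had the second largest SD of the complex (0.40). It ran from 4.39 CPM in clone A to 12.2 in clone F, around a median of 7.02, and was picked after its values were seen. Few reads lay behind it, 54 to 184 per clone.

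NDUFA4L2 was the exception to the small spread. It is a paralogue of NDUFA4, is known as a target of hypoxia-inducible factor 1, and is not counted among the constant subunits of the complex. Clone L had 59 reads of it (4.22 CPM) and clone O had 4431 (282 CPM), a 66.8-fold range. The median clone had 66.9 CPM and the heterogeneous population 12.6 CPM. Clones O, C, P, Q and J lay above 160 CPM, and clones I, F, K and L below 14 CPM; the other 8 clones filled the range from 30.7 to 115 CPM. Its SD of 1.83 was larger than that of 99.6% of all genes, and with TMM the SD was 1.86 and the range 73.6-fold. NDUFA4 itself stayed between 64.6 CPM in clone A and 102 in clone F, with a median of 75.3, so the log2 difference of the pair (NDUFA4L2 minus NDUFA4) ran from -4.11 in clone L to 2.01 in clone O (median 0.05, SD 1.96).

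The summed level of 10 genes known to be induced by hypoxia, a list without NDUFA4L2, was 1317 CPM in clone O, 1247 in clone C, 1278 in clone P, 1061 in clone Q and 880 in clone J. In clones I, F, K and L it was 800, 670, 626 and 719 CPM. The 8 clones between them did not keep the order. Clones N and A, at 32.6 and 66.9 CPM of NDUFA4L2, had sums of 907 and 901, above clone J, and clone M, at 91.0 CPM, had 727, below clone I. Clone O had the highest sum with either scaling, and the lowest was in clone K by library total and in clone L with TMM. The genes of the list did not move alike. BNIP3, SLC2A1, CA9 and PDK1 were each higher in clones O, C, P, Q and J than in clones I, F, K and L. For CA9 the margin was slight, with 0.986 CPM in clone J against 0.930 in clone L. All other genes of the list overlapped between these clones. LDHA was 79.8 CPM in clone J against 121 in clone L, and VEGFA 82.3 in clone Q against 90.9 in clone F. The genes of the list named here were picked after their values were seen. NDRG1 was 279 and 206 CPM in clones P and Q, 430 in clone O, and 431 and 404 in clones I and F. ADM was 145 CPM in clone L against 45.8 in clone O. Oxygen in culture and cell density are not in the labels, and their part was not tested. No single clone passed the test against the other 16 for NDUFA4L2. The smallest p belonged to clone L (log2 difference -4.80, SE 2.07, unadjusted p = 0.0325, adjusted p = 0.583 in edgeR).

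**Figure D2:**
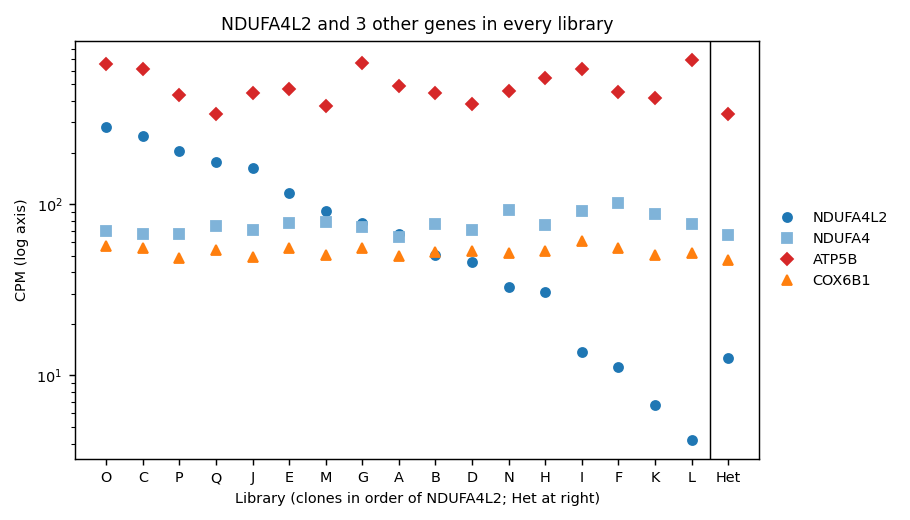
CPM (log axis) of NDUFA4L2, NDUFA4, ATP5B and COX6B1 in each library, with the clones in order of NDUFA4L2 and the heterogeneous population (Het) at the right. NDUFA4L2 runs from 282 CPM in clone O to 4.22 in clone L while COX6B1 stays between 48.4 and 61.3 CPM; heights of different genes are not comparable, since transcript lengths differ.

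Complex II was represented by SDHB and SDHC alone. SDHB, the iron-sulphur subunit, lay between 75.9 CPM in clone P and 123 in clone I (median 96.7), and at 117 in the heterogeneous population. SDHC, a membrane anchor, lay between 9.44 CPM in clone J and 15.9 in clone I (median 12.1), and at 9.82 in the heterogeneous population. Their SDs were 0.18 and 0.16. In the heterogeneous population SDHB was above 14 of the 17 clones and SDHC was below 16 of them.

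All 9 genes of complex III were measured, and this complex had the largest median SD. UQCRB, a small subunit known as a ubiquinone-binding protein, had the largest SD (0.41), with 21.8 CPM in clone P, a median of 33.1 and 58.0 in clone F. Clone I, at 56.4 CPM, was close to clone F, and clones K and E followed at 48.6 and 48.0. UQCRC1, a core protein with the most reads in the complex, ran from 124 CPM in clone Q through 170 to 238 in clone I. CYC1, the cytochrome c1 subunit, was also lowest in clone Q (55.8 CPM) and was highest in clone O (122 CPM, median 82.9). UQCRH, the hinge protein beside cytochrome c1, went the other way in clone Q. It was at its highest there, at 79.0 CPM, over a range that began at 51.4 in clone L and had a median of 57.9, and it had the smallest SD of the complex (0.15). CYC1 was chosen after its values were seen.

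In complex IV the smallest and the largest spreads belonged to small accessory subunits. COX6B1, which faces the intermembrane space, lay between 48.4 CPM in clone P and 61.3 in clone I (median 53.0, SD 0.09), with 611 to 926 reads per clone. Its SD was larger than that of 0.03% of all genes with at least 1 CPM, and with TMM it was 0.14. COX7A2L, which takes part in joining complexes III and IV into supercomplexes, had the most reads of the complex and lay between 112 CPM in clone A and 161 in clone L (median 136). COX7A1, the isoform typical of heart and skeletal muscle, had the largest SD of the measured genes of complex IV (0.31). It was found in every library, at 3.68 CPM in clone E, 5.88 in the median clone, 8.75 in clone Q and 7.21 in the heterogeneous population, from 57 to 132 reads.

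Several subunits of complex IV exist as a common form and a form typical of muscle, lung or testis. The widespread forms COX4I1, COX6B1, COX7A2 and COX8A were measured in all libraries, while COX6A1 and COX7B were among the genes listed at 0. COX4I2, the lung form, had 0 to 8 reads per library, COX6B2, the testis form, 1 to 35, COX7B2 0 to 7, and the muscle form COX6A2 0 to 1. COX8B had none. The log2 difference of COX7A1 minus COX7A2 ran from -3.01 in clone E to -1.28 in clone Q around a median of -2.34 (SD 0.46, n = 17), and was -1.43 in the heterogeneous population. COX6B2 minus COX6B1 ran from -7.41 in clone H to -4.54 in clone O, and COX4I2 minus COX4I1 from -9.02 in clone K to -7.11 in clone N. For these last 2 pairs the values rest on a handful of reads and move with the pseudocount. Muscle markers outside the chain summed to 117 CPM in clone Q to 459 in clone P, with MYH2, TNNT2, TNNI1 and MYOG listed at 0, and to 141 CPM in the heterogeneous population. Clone Q thus had the highest COX7A1 and the lowest sum of muscle markers. Most of that sum was DES (54.5 CPM in clone Q) and ACTC1 (55.1 CPM). Other markers were not low there. MB had 2.69 CPM in clone Q and was higher only in clone N (3.19). TNNT3 had 3.31 CPM in clone Q, with only clones N, P and J higher. With TMM the sums of clones Q and N were close (112.65 and 112.96 CPM).

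Complex V held the genes with the most reads of the chain. ATP5B, the catalytic beta subunit, ran from 337 CPM in clone Q through a median of 459 to 696 in clone L, and stood at 336 in the heterogeneous population. ATP5G3, one of the genes for the membrane ring that turns with the proton flow, had the largest SD of the complex (0.35). It ran from 70.8 CPM in clone D through 94.5 to 149 in clone G, and was 63.5 in the heterogeneous population. The levels of both were highest in the same 5 clones, L, G, O, C and I. In ATP5B those clones had 696, 662, 659, 618 and 615 CPM, and the next clone, H, had 548. The summed level of 10 proliferation genes in those 5 clones was 1806, 1488, 1686, 1469 and 689 CPM, and in the other 12 clones it did not exceed 591 CPM. The part of growth state in these levels was not tested. ATP5G2, which encodes the same ring protein as ATP5G3, did not share the order and lay between 92.1 CPM in clone F and 128 in clone K. It was picked after its values were seen. ATP5J2, a small subunit of the membrane part, had the smallest SD of the complex (0.13), with 30.0 CPM in clone A, 34.0 in the median clone and 43.5 in clone I.

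Summed over its genes, each complex was highest in clone I. The sum for complex I was 1829 CPM in clone I against 1375 in the lowest clone, N (mean 1553, SD 121, n = 17). For complex II it was 139 against 89.7 in clone P (110 ± 13.1), for complex III 754 against 452 in clone Q (578 ± 77.8), for complex IV 646 against 491 in clone P (541 ± 36.6), and for complex V 2142 against 1400 in clone Q (1722 ± 242). The highest clone exceeded the lowest 1.33-, 1.55-, 1.67-, 1.31- and 1.53-fold in the order of the complexes. NDUFA4L2 alone supplied 282 of the CPM of complex I in clone O. Without it, complex I ran from 1305 CPM in clone Q to 1816 in clone I. With TMM, clone I stayed the highest for complexes III and V and for complex I without NDUFA4L2, while clone E was the highest for complexes I and IV and clone D for complex II. The lowest clone with TMM was N for complexes I to IV and Q for complex V. The heterogeneous population lay below all 17 clones for complexes I and V by library total. With TMM it lay below 14 clones for complex I and 16 for complex V, and for complex I without NDUFA4L2 below 16 (12 with TMM).

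**Figure D3:**
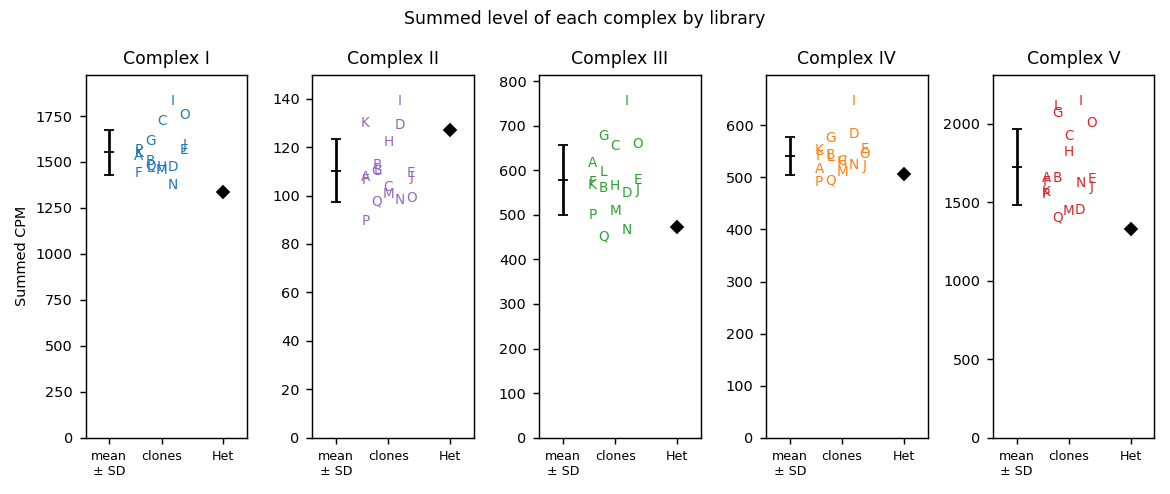
Summed CPM of the genes of each complex, one letter per clone, with the mean ± SD of the 17 clones at the left and the heterogeneous population (Het, diamond) at the right of each panel. Clone I is the top letter in all 5 panels, and the heterogeneous population lies below all 17 letters for complexes I and V; with TMM, which is not plotted, it lies below 14 and 16 clones and clone I is the highest only for complexes III and V.

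Clone I stood out gene by gene as well as in the sums. It had the highest level of the 17 clones in 37 of the 68 measured genes, where it was the highest in 6.25% of all genes. With TMM the count was 19, against 3.41% of all genes. The 37 were 20 of the 33 genes of complex I, 2 of 2 in complex II, 5 of 9 in complex III, 3 of 8 in complex IV and 7 of 16 in complex V. The median of the 68 genes lay 0.35 log2 units above the median clone there (0.23 with TMM), where the median of all genes lay 0.08 above. Clone I was above the median clone in 65 of the 68 genes, and NDUFA3, NDUFA4L2 and ATP5SL lay below it. Neither the genes of the chain nor any other genes passed the test in clone I. The smallest p in the chain was that of NDUFB4, an accessory subunit of the membrane arm of complex I. It had 24.6 CPM in clone I where the median clone had 17.1, and is named for its p, after its values were seen (log2 difference 0.42, SE 0.17, unadjusted p = 0.0274, adjusted p = 1.0 in edgeR).

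**Figure D4:**
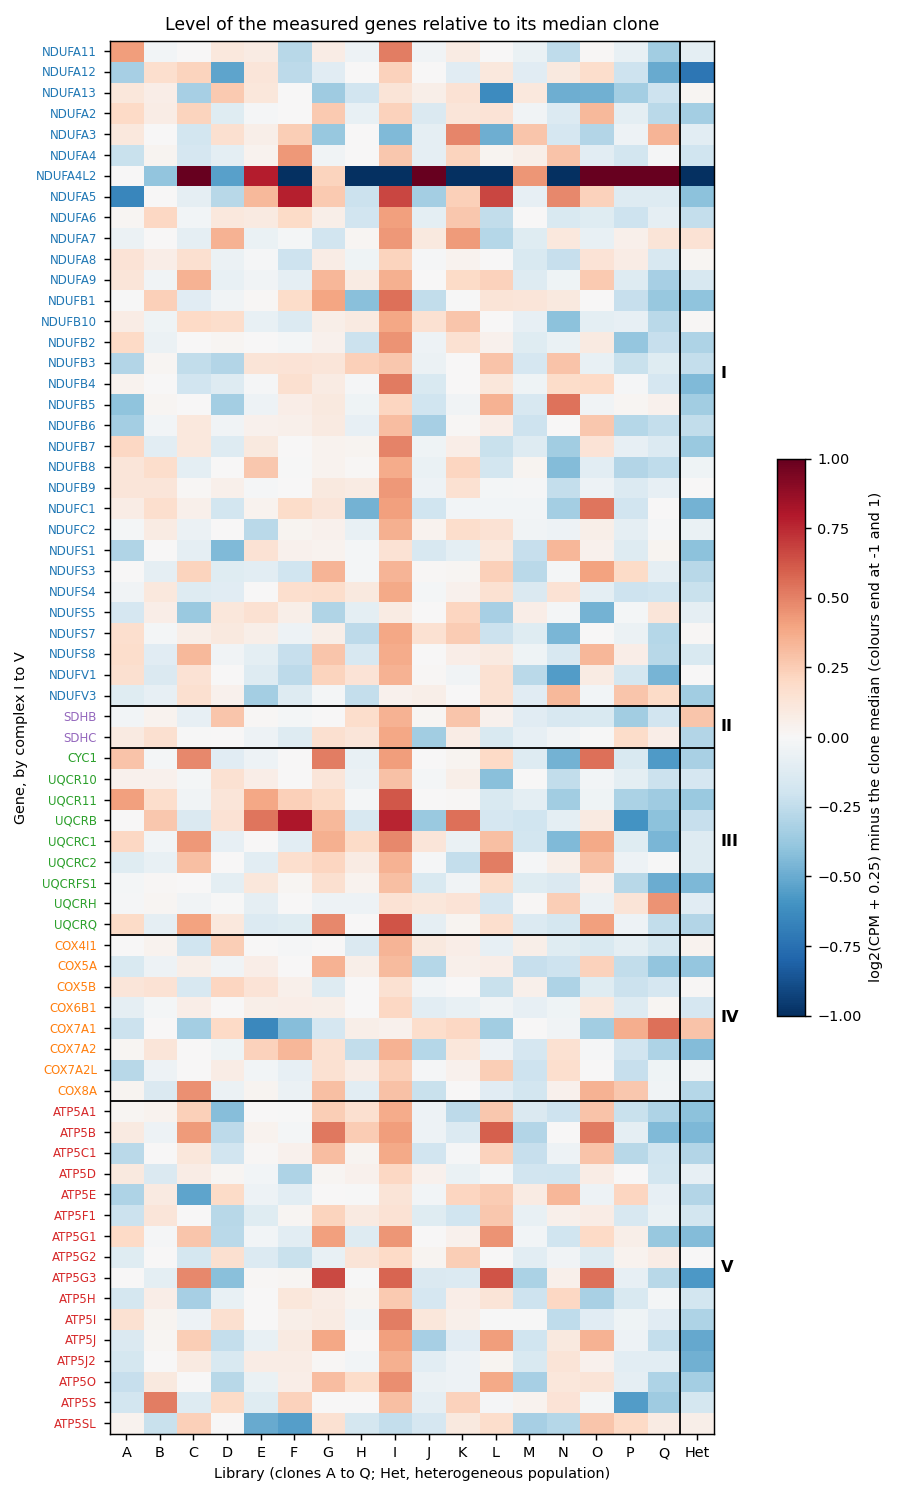
Log2(CPM + 0.25) of 67 of the 68 measured genes (rows, grouped by complex) in each library (columns) minus the median of the clones, with colours ending at -1 and 1. The column of clone I is red in 64 of the 67 rows, and the NDUFA4L2 row passes the ends of the colour scale in both directions.

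At the low end, clone Q had the lowest level of the clones in 13 of the 68 genes (5.96% of all genes) and clone N in 10 (6.69% of all genes). With TMM it was clone N in 22 (13.9% of all genes), clone L in 12 (9.86%) and clone Q in 10 (6.82%). In clone Q complex III was the lowest complex, with its median gene 0.35 log2 units below the median clone. Clones N and L also had the largest share of reads outside genes (26.8% and 24.8%, against 18.8% to 22.7% in the other clones), and the part of this in their levels was not tested.

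Each clone was then tested against the other 16, one contrast per clone, in edgeR over 11761 genes, of which 70 were genes of the chain (the 68 with NDUFV2 and COX6B2). At an adjusted p under 0.05, 0 of the 1190 tests of these genes were called, where 90 of 199937 tests over all genes (0.045%) were called, 86 of them in clone N (0.731% of its tests) and 4 in clone M (0.034%). At an unadjusted p under 0.05 there were 45 of 1190 (3.78%), against 4.4% over all genes. limma voom also called 0 of these genes, and DESeq2 called 2, both in clone N. Among them was NDUFV1, the NADH-binding subunit of complex I. Over these contrasts both alternatives called more of all genes than edgeR did, with the counts given at the end. The edgeR shares above are therefore not the background of the DESeq2 calls, and the DESeq2 share in clone N is not given.

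NDUFV1 had 86.4 CPM in clone N, the lowest of all libraries, and between 92.2 and 163 in the other clones. The difference was -0.71 (SE 0.21, unadjusted p = 0.00371, adjusted p = 0.121) in edgeR and -0.73 (adjusted p = 0.0255) in DESeq2. In clone N, 12 of the 70 genes had an unadjusted p under 0.05, 11 of them lower, where 16.5% of all genes did. In clone Q, 8 of the 70 had one, where 5.93% of all genes did. UQCRFS1, the Rieske iron-sulphur protein of complex III, NDUFA9, CYC1, ATP5B, UQCRC1, ATP5G1 and COX5A had lower values there and UQCRH a higher one, all with an adjusted p of 0.758 in edgeR. In clone L there were 6, all lower (8.56% of all genes), and in clone F 4, all higher (3.53%). NDUFA4 in clone F was higher by 0.58 (SE 0.17, unadjusted p = 0.0035, adjusted p = 0.907 in edgeR), and UQCR10, a small subunit of complex III, was lower in clone L by 0.66 (fitted difference -0.66, SE 0.21, unadjusted p = 0.00518, adjusted p = 0.583 in edgeR). The smallest p in clone Q was that of UQCRFS1 (difference -0.54, SE 0.19, unadjusted p = 0.0102 in edgeR). The genes of clones Q, L and F in this paragraph were picked by their p, after their values were seen. The counts in clones N and L were near the share over all genes. How many of all genes were lower or higher at that p is not given, so the directions have no share beside them. The median fitted difference of the 70 genes was -0.23 in clone N, -0.22 in Q, -0.19 in L and 0.13 in F. Over all genes it was -0.03, -0.02, -0.05 and -0.05. Apart from the 2 DESeq2 calls in clone N, and COX7B2 in clone E when no filter was used, no alternative brought any gene of the chain past the threshold.

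The levels of the chain were more often positively than negatively correlated over the clones. Over the 2278 pairs of the 68 genes the median Pearson r of log2(CPM + 0.25) across the 17 clones was 0.31, and 25.5% of pairs were negative. Over all pairs of genes with at least 1 CPM the median was 0.11, with 40.9% negative. With TMM the medians were 0.41 and about 0 (-0.001). Within complexes the median r was 0.27 in complex I, 0.45 in complex III, 0.19 in complex IV and 0.32 in complex V, and between genes of different complexes it was 0.31. With TMM these were 0.42, 0.52, 0.45, 0.35 and 0.41, so complex IV had the lowest median by library total and complex V with TMM. The median depended on clone I. Without that clone it was 0.15 against 0.11 over all genes, and with TMM 0.37 against -0.001. The pairs share libraries and their depth, so these values are descriptions.

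Seen from ATP5B, the genes differed. Of the other 67, 19 had an r over 0.7 with it across the clones and 15 had a negative r (with TMM, 11 and 16). The closest were ATP5G3 (r = 0.952, Spearman rho = 0.922), ATP5A1, the alpha subunit (r = 0.911, rho = 0.897), ATP5J, a subunit of the stator stalk (r = 0.889, rho = 0.833), NDUFA9, an accessory subunit of the matrix arm of complex I (r = 0.875, rho = 0.806), and UQCRC1 (r = 0.855, rho = 0.831). At the other end were NDUFA3, a small membrane-arm subunit of complex I (r = -0.845, rho = -0.809), NDUFS5 (r = -0.79, rho = -0.725), UQCRH (r = -0.593, rho = -0.647) and COX7A1 (r = -0.584, rho = -0.669). NDUFS5, an accessory subunit of complex I, had 38.0 CPM in clone O, 40.8 in C, 42.1 in L and 43.1 in G, its 4 lowest clones, and 56.2 in clone I. In complex III, 5 of 9 genes were over 0.7 and 2 were negative (3 and 1 with TMM). The 2 were UQCRH and UQCR10, and UQCR10 was near 0 (r = -0.013). With TMM the most negative r was that of COX7A1 (-0.806), and NDUFA3 had -0.593. The genes in this paragraph were picked by their r, after their values were seen. Counts of r with ATP5B over all genes were not made. Whether the counts above are particular to the chain was therefore not tested.

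The heterogeneous population was compared with the 17 clones over 11878 genes, with this single library taken to vary as the clones do. Of the 70 genes of the chain tested, 0 passed an adjusted p under 0.05, where 145 of all genes (1.22%) did, 144 of them higher. DESeq2, limma voom and every left-out clone also gave 0. At an unadjusted p under 0.05 there were 2 of 70, where 912 of all genes (7.68%) had one. They were ATP5J2, at 24.3 CPM against a mean of 34.0 (log2 difference -0.40, SE 0.17, unadjusted p = 0.028, adjusted p = 0.578 in edgeR), and ATP5J, at 45.7 CPM against 68.1 (-0.48, SE 0.22, unadjusted p = 0.0393, adjusted p = 0.62). Both lay below all 17 clones.

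The fitted differences of the chain leaned low without passing the test. The median was -0.17 over the 70 genes, with 52 below 0 and 18 above, and -0.04 over all genes, with 6360 below 0 and 5518 above. By complex the median was -0.16 in complex I, 0.04 in complex II, -0.30 in complex III, -0.09 in complex IV and -0.27 in complex V. All 9 genes of complex III and 13 of 16 of complex V were below 0. On the CPM scale the heterogeneous population lay below every clone in 20 of the 68 measured genes, where it did so in 11.8% of all genes, and above every clone in 0 of them (5.02% of all genes). Of the 20, 8 were in complex V, 7 in complex I, 3 in complex IV and 2 in complex III. With TMM it lay below every clone in 6 of the 68 genes, against 9.3% of all genes. These were NDUFA12, NDUFB4 and NDUFS3 of complex I, and ATP5G3, ATP5J and ATP5J2 of complex V. The heterogeneous population lay above every clone with TMM in 1 gene, SDHB of complex II, against 8.14% of all genes.

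**Figure D5:**
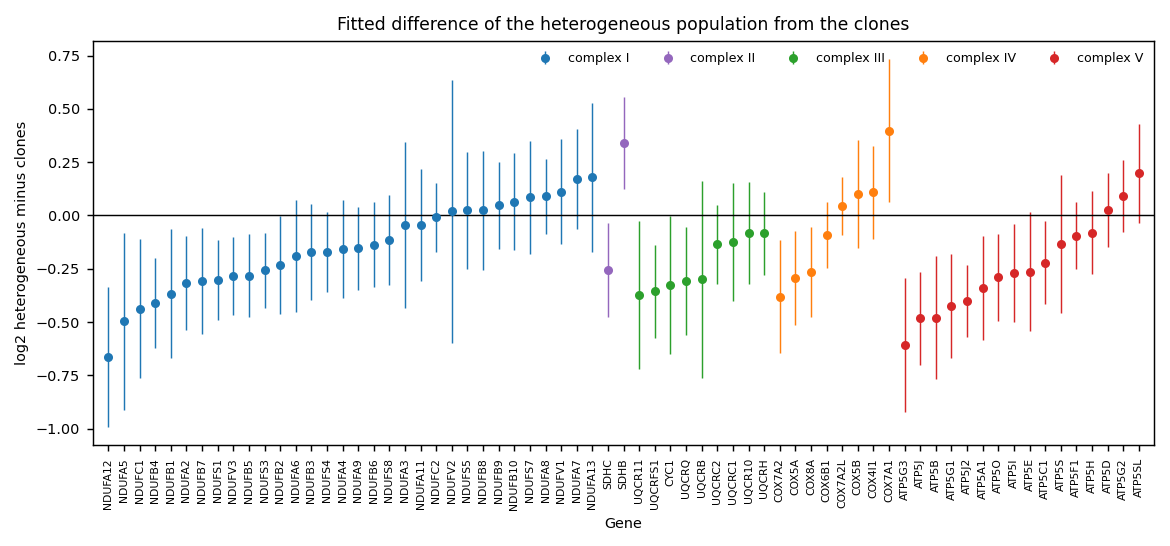
Fitted log2 difference of the heterogeneous population minus the 17 clones for 67 of the 70 tested genes, in order within each complex, with bars of 1 SE; NDUFA4L2 (-2.83, SE 1.97) and COX6B2 (-2.29, SE 1.34) are among those left out, for their range. All 9 genes of complex III lie below 0, and no gene of any complex passed the test.

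Macrophage markers and proliferation genes also differed between this library and the clones. Of 19 macrophage markers with reads, 18 lay above every clone in the heterogeneous population. Some of them rest on few reads there, such as C1QB (1), LYZ (2) and C1QC (9). Over all genes with a mean of at least 1 CPM over the clones 5.02% lay above, but only 3 of the markers reached that mean. MARCO, ITGAM and CYBB were at 0 in all libraries. The list summed to 271 CPM in the heterogeneous population against 13.6 to 102 in the clones. CTSS, the marker that did not lie above every clone, made up 95.3 of the 102 CPM in clone N. It had 85.8 CPM in the heterogeneous population. Of the 10 proliferation genes, 8 lay below every clone, with a sum of 96.9 CPM against 111 to 1806. Their part in the lower levels of the chain was not tested.

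Lists of genes around the chain are set here beside the shares over all genes, of which 1.22% were called in the heterogeneous population and 0.045% over the clone contrasts. Of 49 assembly factors, which insert cofactors and join subunits, 36 were measured, and 0 were called in the heterogeneous population or in any clone. In the heterogeneous population 23 of their fitted differences were below 0 and 13 above (median -0.11), where 6360 of all 11878 genes were below 0 (median -0.04). Their median SD over the clones was 0.25, above that of the subunits, and their sum ran from 654 CPM in clone A to 838 in clone I by library total, and from 662 in clone N to 804 in clone F with TMM (787 in clone I). Of 12 genes of the tricarboxylic acid cycle, which supplies NADH and succinate, 0 were called, 10 were below 0 in the heterogeneous population (median -0.12), and the sum ran from 972 CPM in clone Q to 1718 in clone G (1663 in clone I, 1032 in the heterogeneous population), with the same clones at both ends with TMM. Of the 14 transcriptional regulators and factors of mitochondrial DNA expression, such as PPARGC1A, NRF1 and TFAM, 0 were called. The 12 of them with at least 1 CPM had a median SD of 0.33. The sum of the list was highest in clone O with either scaling (462 CPM by library total, from 278 in clone F). In the heterogeneous population 10 of the 14 had a fitted difference below 0 and 4 above (median -0.10). PPARGC1A lay above every clone there, at 1.18 CPM, from few reads (19, against at most 8 in a clone).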

How the data were processed

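The authors aligned the single-end reads to bosTau7 with STAR 2.3.0e (version from the submitters' processing notes) and counted them per RefSeq gene of annotation release 103 with HTSeq. What they deposited were raw counts, a whole number for each gene in each library, not normalized. The series table held the same values. Lines naming no gene were left out (reads outside genes, 18.8% to 26.8%). Coordinates and sequences were not used here.

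CPM was computed per 1e6 gene reads and log values as log2(CPM + 0.25). Measured genes had a mean of at least 1 CPM over the clones. Count tests used edgeR 4.0.16 in R 4.3.3 (filterByExpr, TMM, quasi-likelihood F test, Benjamini-Hochberg over all genes tested), with DESeq2 1.42.0 and limma 3.58.1 voom as alternatives. The scripts were tested on simulated counts. A single library against the others is assumed to vary as they do. SE is the fitted difference over the root of F. All else was computed in Python 3.11.15 with pandas 2.3.3 and drawn with matplotlib 3.10.9.

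The genes and lists were chosen with earlier results of these data known. Named genes were those called in any contrast, in each complex the largest and smallest SD and the most reads, both genes of 7 paralogue pairs, and those that missed the minimum. One gene that this rule takes in is not reported here. Others are named as chosen after their values were seen.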

Additional observations from a re-analysis of the deposited data

How the results depend on the processing

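In the heterogeneous population 0 genes of the chain were called in edgeR with TMM, DESeq2 size factors, library totals or no filter, in DESeq2, in limma voom and without each clone in turn (0 to 0), while the calls over all genes were 145, 91 in DESeq2, and 137 to 155 without a clone. Over the clone contrasts the chain had 0 calls, 2 in DESeq2 and 1 without a filter (COX7B2 in clone E, from 7 reads), and all genes had 90, 457 in DESeq2, 524 in limma voom, 5 without clone N and 10 adjusted over all contrasts together. DESeq2 called 214 higher and 243 lower, edgeR 80 and 10. The cause was not tested. The median SD of 0.20 was 0.19 to 0.21 without a clone. The median r of 0.31 was 0.15 to 0.34, lowest without clone I. The highest-to-lowest ratio of the sums was 1.27 to 1.33 for complex I, 1.42 to 1.55 for II, 1.5 to 1.67 for III, 1.19 to 1.31 for IV (lowest without clone I) and 1.48 to 1.53 for V. For complex I it was 1.46 with TMM and 1.43 with DESeq2 size factors. Genes with the heterogeneous population below every clone fell from 20 to 6 with TMM, and those highest in clone I from 37 to 19. With a pseudocount of 1 the median COX4I2 difference was -6.70 in place of -8.22, and that of COX6B2 -5.15 in place of -6.12. The comparisons with TMM of counts of genes and of list sums, the sum without NDUFA4L2 and TMM without clone I were chosen after seeing the data. No paired analysis was possible because no groups share replicate numbers. With 1 library per clone, the depth limits genes with few reads, and a lone library shows only large differences.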
